A study of Mus musculus with 2 samples.

Results

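A small group of mostly structural cells lay among the white blood cells sorted from the recovering mouse colon. They were the cells that the authors' deposited metadata place in cluster 9, called fibroblast-like here from their markers, and they numbered 210 of 13492 metadata cells. The wild type library gave 103 of its 6466 cells, a share of 1.59% (exact 95% interval 1.30 to 1.93), and the library labelled E4BP4 transgenic gave 107 of 7026, a share of 1.52% (1.25 to 1.84). The ratio of the 2 shares was 0.956, with an exact interval from 0.723 to 1.27 that holds 1.

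Both groups were C57BL/6 mice aged 8 weeks that drank 2.0% dextran sulphate sodium (DSS), a polymer that injures the colon lining, for 7 days and then had 7 days without it before tissue was taken on day 14. One group was wild type, and the other carried a transgene for macrophage-specific overexpression of E4BP4, a transcription factor whose gene is Nfil3. Live cells with CD45, the surface protein of white blood cells encoded by Ptprc, were sorted from the lamina propria and run on the 10x Genomics 5′ platform. There was 1 library per genotype, with 69346746 and 58884332 UMIs (counted molecules) in 9855 and 10143 barcodes. The labels do not say how many animals a library pooled or which promoter drives the transgene. With 1 library each, no difference between genotypes could be tested. Every interval below is an exact 95% interval that covers counting error only, and it does not cover differences between animals or the sharing of UMIs within a cell.

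Fibroblasts of the colon lamina propria make the fibrillar collagens and proteoglycans on which the tissue is built, and they supply Wnt, BMP and growth factor signals to the epithelium. Other structural cells share their space: endothelium that lines blood and lymph vessels, contractile smooth muscle cells and pericytes, and the glia of the enteric nervous system. None of these cells is a white blood cell, and Ptprc is not known as a gene of theirs. DSS injury and repair are known to change the matrix and chemokine genes of fibroblasts.

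Promoter sequences of genes that lead the matrix-making and the contractile cells of the cluster are shown here to place these genes in the genome. They are the 250 bases before the annotated start of each gene in RefSeq (GRCm38.p6), written on the gene's own strand. Capitals mark a CCAAT box in Col1a2 (chr6:4505368-4505617, plus strand), which encodes the second chain of type I collagen. In Col3a1 (chr1:45311288-45311537, plus strand), the gene of type III collagen, capitals mark the letters TATAAA. In Myl9 (chr2:156775214-156775463, plus strand), which encodes a regulatory light chain of myosin, they mark a CArG box, the element to which serum response factor is known to bind.
Col1a2: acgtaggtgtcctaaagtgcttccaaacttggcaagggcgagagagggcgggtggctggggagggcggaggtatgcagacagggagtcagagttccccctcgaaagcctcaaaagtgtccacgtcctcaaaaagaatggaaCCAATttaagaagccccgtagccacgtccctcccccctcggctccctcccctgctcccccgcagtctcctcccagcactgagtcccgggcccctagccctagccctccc
Col3a1: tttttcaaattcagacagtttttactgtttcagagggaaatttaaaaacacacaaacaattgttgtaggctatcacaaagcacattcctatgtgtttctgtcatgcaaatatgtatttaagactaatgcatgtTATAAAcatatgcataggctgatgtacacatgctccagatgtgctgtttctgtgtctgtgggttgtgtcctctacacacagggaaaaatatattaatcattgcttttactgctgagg
Myl9: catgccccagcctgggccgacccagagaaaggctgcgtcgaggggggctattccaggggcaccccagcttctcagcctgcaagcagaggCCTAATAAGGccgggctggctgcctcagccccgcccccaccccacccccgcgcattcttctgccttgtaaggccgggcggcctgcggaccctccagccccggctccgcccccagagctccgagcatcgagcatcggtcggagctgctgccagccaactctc
On either strand, CCAAT stood in 33.8% of 32851 windows of this length, TATAAA in 12.4% and the CArG box in 1.47%. Of the 24 genes of the matrix list that have an entry, 8 held CCAAT, 3 held TATAAA and 1 held a CArG box. Of 14 such genes of the fibroblast list 1 held CCAAT and 1 TATAAA, and of 5 of the smooth muscle list 3 held CCAAT, 1 TATAAA and 0 a CArG box. These matches describe the letters and are not evidence of binding.

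No cell of the cluster had more than 2199 detected genes in the wild type library or 2197 in the library labelled transgenic. The cells of the cluster held 251789 UMIs in the wild type library and 290283 in the library labelled transgenic, or 1.23% and 1.45% of the UMIs of all metadata cells. Median UMIs per cell were 2320 and 2720, between 506 and 6681 in the first library and between 516 and 5779 in the second. Median genes per cell were 1278 and 1344, and the median share of mitochondrial UMIs was 0.983% and 1.24%, against 0.814% and 1.06% in the other metadata cells. Between the libraries 142 barcodes were shared, 0 of them in the cluster. The finer deposited clustering kept the group together: 100 of the 103 and 103 of the 107 cells lay in its cluster 12, which held 101 and 103 cells in all.

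Nfil3, the gene of the transgene's product (chromosome 13, 52967209 to 52981073 in mm10, minus strand), was not higher in these cells of the library labelled transgenic. It had 13 UMIs in 12 wild type cells and 6 UMIs in 5 cells of the other library, which is 51.6 and 20.7 CPM (the usual depth-scaled count, here of the UMIs summed over cells). The ratio of the library labelled transgenic over wild type was 0.40 (0.125 to 1.13). In all other metadata cells Nfil3 stood at 122 and 74.1 CPM, also lower in the library labelled transgenic. The other cells pool all other clusters, and among these Nfil3 was highest in cluster 6, which held 10.0% and 2.38% of the metadata cells. The transgene is described as macrophage-specific, so Nfil3 in the fibroblast-like cluster neither bears out nor contradicts the label of the second library.

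The 5 marker genes set the cluster apart from the 9 other deposited clusters. Col1a1 (chromosome 11, 94936224 to 94953042, plus strand), the first chain of type I collagen, stood at 3273 CPM in the wild type library and 2343 CPM in the library labelled transgenic, against 2.42 and 2.13 CPM in all other cells. For Col3a1 (chromosome 1, 45311538 to 45349706, plus strand) the cluster held 3960 and 4506 CPM against 5.58 and 3.91. Dcn (chromosome 10, 97479609 to 97518143, plus strand), the collagen-binding proteoglycan decorin, reached 2927 and 5474 CPM against 7.40 and 6.40. The level of these 3 genes was between 395-fold (Dcn, wild type) and 1353-fold (Col1a1, wild type) above that of the other cells.

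Sparc (chromosome 11, 55394500 to 55423183, minus strand), a secreted matrix protein that endothelium also makes, had 5930 and 5240 CPM against 10.4 and 9.30. Adamdec1 (chromosome 14, 68563380 to 68582095, minus strand), a secreted metalloprotease known from gut fibroblasts and macrophages, had 1374 and 2522 CPM against 3.80 and 6.61. Not every cell carried every marker. Sparc UMIs were found in 91 of 103 and 94 of 107 cells, Col3a1 UMIs in 56 and 78, Col1a1 UMIs in 51 and 72, Dcn UMIs in 46 and 62 and Adamdec1 UMIs in 26 and 42. At least 3 of the 5 markers were detected in 51 of 103 and 72 of 107 cells of the cluster, and in 4 of 6363 and 2 of 6919 other cells. The contrast with other cells is a description, since the cluster was made from these genes.

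**Figure D1:**
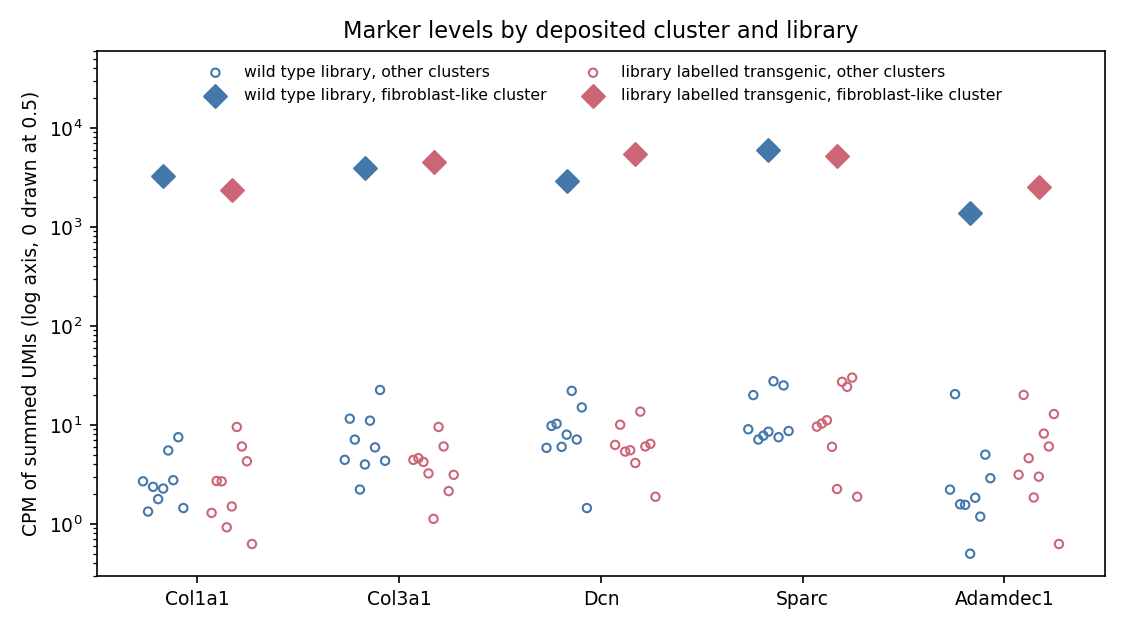
Level of each marker gene (CPM of summed UMIs, log axis) in the fibroblast-like cluster (diamonds) and in each of the 9 other deposited clusters (open circles, values of 0 drawn at 0.5) of the 2 libraries. The diamonds lie between 1374 and 5930 CPM, and the highest other cluster stays far below them for all 5 genes.

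Across all genes with at least 20 UMIs in the cluster, 1455 of 4808 (30.3%) stood at least 2-fold above the other metadata cells in both libraries. Another 153 (3.18%) stood at least 2-fold below. The minimum was set on the UMIs of the cluster itself, so genes low in these cells could seldom enter. The 2 counts therefore cannot be weighed against each other. The 20 genes furthest above were led by matrix genes: Col1a1, Col1a2, Col3a1, Col4a2, Col6a1, Col6a2, Col6a3, the laminin chain Lamb1, elastin (Eln), tenascin X (Tnxb), perlecan (Hspg2), Mfap4, Ltbp4, and the matrix cross-linking enzymes Loxl2 and Pxdn. Clec3b, which encodes tetranectin, stood at 810.2 and 1819 CPM against 0.543 and 1.27. The chemokine Cxcl12, which retains leukocytes that carry its receptor, stood at 969 and 1033 CPM against 1.48 and 1.42. The epithelial signal Bmp4 had 318 and 489 CPM against 0.247 and 0.407. One of the 20, Plvap, is a gene of endothelium and not of fibroblasts. All 35 measured matrix genes of 36 listed were at least 2-fold above the other cells in both libraries, with the same minimum of UMIs in the cluster.

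Ptprc (chromosome 1, 138062861 to 138175708, minus strand), the gene of the protein on which the cells were sorted, was rarely detected in the cluster. A Ptprc UMI was found in 11 of 103 wild type cells, 10.7% (5.45 to 18.3), and in 16 of 107 cells of the library labelled transgenic, 14.95% (8.80 to 23.1). The other 9 clusters lay between 56.7% and 87.3% in the wild type library and between 56.3% and 92.2% in the other, so neither library's cluster overlapped any of them. In CPM the cluster had 59.6 and 99.9, from 15 and 29 UMIs, against 624 and 689 in the other cells pooled.

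The gap was also present at equal depth. With each cell thinned to 1000 UMIs, which left out 21 and 17 shallower cells of the cluster, Ptprc was found in 4.88% and 6.67% of its cells, against 42.7% and 46.0% of all other cells and at least 29.5% and 26.0% of each other cluster. Without the cells of highest doublet score (21 and 11 cells of the cluster), the unthinned shares were 9.76% and 11.5%. At least 3 of 10 pan-leukocyte genes were found in 8 and 18 cells of the cluster, at least 3 of 9 monocyte genes in 17 and 31 and at least 3 of 7 plasma cell genes in 37 and 53. The monocyte list holds Fn1 and Vcan, which are also on the matrix list, so its count does not mark leukocyte RNA alone. Free RNA, doublets and leukocyte genes made by these cells cannot be told apart in such counts. Between the libraries the Ptprc ratio was 1.68 (0.870 to 3.37), with an interval that holds 1.

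**Figure D2:**
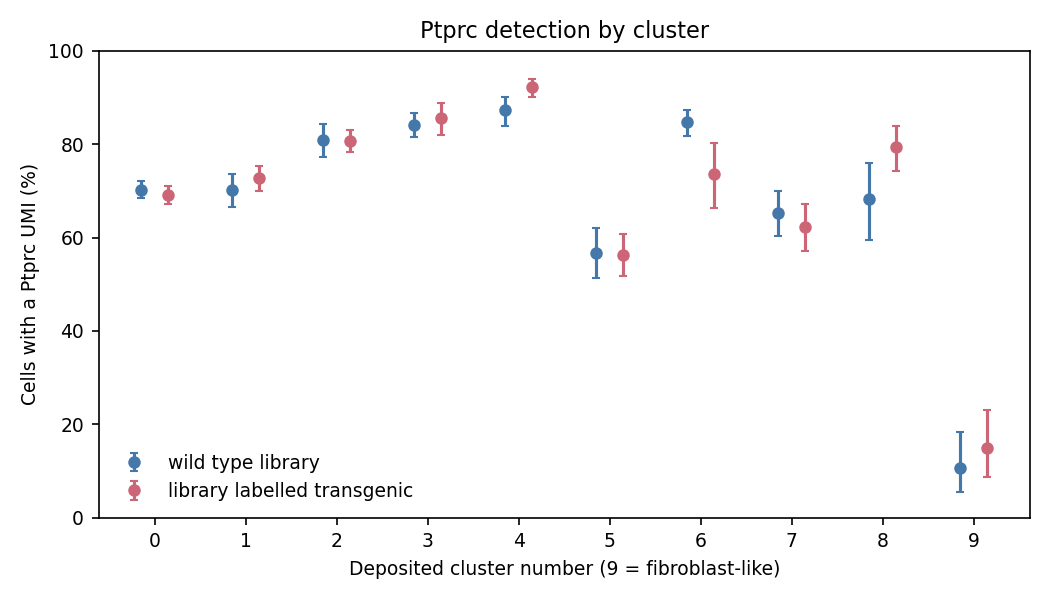
Share of cells with at least 1 Ptprc UMI (percent, bars are exact 95% intervals) for each deposited cluster in the 2 libraries. Cluster 9 lies at 10.7% and 14.95%, and all other clusters lie above 56%.

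The name fibroblast-like fits only some of these cells. A new clustering of the 210 cells alone split them into 8 sub-clusters, and 63 of them fell into the 2 sub-clusters called fibroblast-like, 1 and 5. Of the others, 4 sub-clusters held genes of contractile, endothelial or glial cells, and 2 with 30 cells in all stayed unnamed. As the genes that define a sub-cluster are those it was clustered on, their levels are given as a description and the sub-cluster sizes are not compared between libraries.

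Sub-cluster 1, with 53 cells, had the 21 fibroblast genes at a summed 54255 CPM. Dcn was found in 52 of its 53 cells at 11636 CPM, against 1822 CPM in the other cells of the cluster, and Mgp, a matrix protein that inhibits calcification, in 41 cells at 5404 CPM. Dpt, Lum and Fbln1, further matrix genes, were found in 48, 36 and 35 cells. Sub-cluster 5, with 10 cells, 9 of them wild type, had the fibroblast genes at a summed 39298 CPM, but just 2 of its 10 leading genes were fibroblast markers. It was led by Kcnn3, a calcium-activated potassium channel, and by Pdgfra, the PDGF receptor of fibroblasts and their precursors, found in 8 of 10 cells at 2318 CPM against 206 CPM elsewhere in the cluster. The growth factor gene Nrg1 had 1177 CPM there, from 3 cells. Dcn was lower in this sub-cluster than elsewhere in the cluster, at 1398 CPM against 4444.

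Sub-cluster 3, with 40 cells (20 in each library), was led by genes of the contractile apparatus. Of its 40 cells, 20 carried at least 3 smooth muscle genes and 39 at least 3 fibroblast genes. Acta2, alpha smooth muscle actin, was found in 28 of its cells at 4272 CPM against 65.9 CPM elsewhere in the cluster. Tagln and Myl9, whose promoter is shown above, had 2864 and 1368 CPM, and the smooth muscle myosin Myh11 had 1525 CPM against 6.82. Fibroblast genes were also present, at a summed 28591 CPM, with Col3a1 in 35 of the 40 cells. Rgs5, the marker of pericytes, was found in 8 of them and in 3 cells of sub-cluster 5. Sub-cluster 3 thus held genes of fibroblasts, myofibroblasts, smooth muscle and pericytes side by side.

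Blood endothelium made up sub-cluster 2, with 42 cells. Fabp4, a fatty acid binding protein of capillaries, stood at 7102 CPM there and at 18.4 CPM elsewhere in the cluster. Plvap, the diaphragm protein of fenestrated capillaries, had 3047 CPM in 36 cells. Madcam1 and Selp, which capture leukocytes from the blood in gut venules, had 1168 and 701 CPM in 10 and 11 cells. Col1a1, Dcn, Adamdec1 and Pdgfra each had 0 UMIs in these 42 cells, whereas Sparc had 3476 CPM.

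Lymphatic endothelium made up sub-cluster 6, with 12 cells. Ccl21a, the chemokine that guides dendritic cells into lymph vessels, stood at 4861 CPM in 11 cells, and Lyve1, Mmrn1, Reln and the receptor gene Flt4 were each found in 9 to 11 cells. Glia-like cells made up sub-cluster 4, with 23 cells. S100b, a marker of enteric glia, was found in 15 of them at 452 CPM. Sparc reached 10515 CPM in all 23 glia-like cells, more than in sub-cluster 1, while Dcn had 0 UMIs. Sparc was thus shared by most kinds of cell in the cluster, the lymphatic cells excepted at 77.8 CPM, and Dcn was not.

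A pair of sub-clusters stayed unnamed. Sub-cluster 7 had 23 cells, and all 23 carried at least 3 fibroblast genes, with a summed 43936 CPM and Adamdec1 at 5132 CPM in 17 cells. Its leading genes nonetheless held Cxcl10, Pf4, Ccl7, C1qc, C1qb and Fcer1g, genes known from macrophages, each found in 2 to 5 cells. Names were given by the marker lists met among the 10 leading genes. In sub-cluster 7 these held C1qc and Lyz2 (found in 8 cells) of the leukocyte lists and only Adamdec1 of the fibroblast lists. For that reason the sub-cluster was not called fibroblast-like. Sub-cluster 8 had 7 cells, 6 of them from the library labelled transgenic, and was led by Cd37, Cd79a and Cd52, with Cd74 at 9034 CPM. Ptprc was found in 6 of these 7 cells (85.7%, 42.1 to 99.6). In the 2 fibroblast-like sub-clusters Ptprc was found in 3 of 53 and 1 of 10 cells. The remaining sub-clusters lay between 8.70% and 16.7%.

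**Figure D3:**
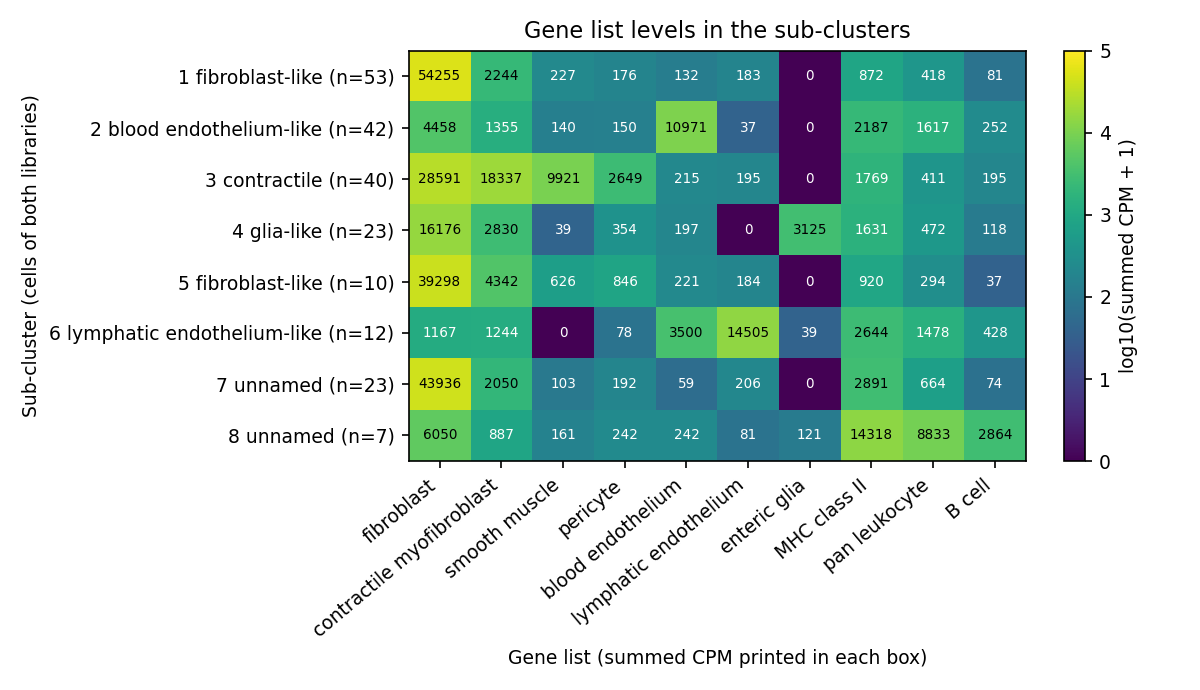
Summed CPM of 10 gene lists (columns) in the 8 sub-clusters of the fibroblast-like cluster (rows, cells of both libraries), with the value printed and the colour on a log10 scale. Fibroblast genes are highest in sub-clusters 1, 7 and 5 at 54255, 43936 and 39298 CPM, and the blood endothelium, contractile, glial and lymphatic lists each peak in another row.

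Counted cell by cell, without the clustering, the same kinds appeared. At least 3 of 21 fibroblast genes were found in 69 wild type cells (67.0%, 57.0 to 75.9) and in 88 cells of the library labelled transgenic (82.2%, 73.7 to 89.0). At least 3 of 11 blood endothelium genes were found in 31 cells (30.1%, 21.5 to 39.9) and 19 cells (17.8%, 11.0 to 26.3). Thinned to 1000 UMIs per cell, these shares were 64.6% and 78.9% for the fibroblast genes and 29.3% and 15.6% for blood endothelium. The lymphatic list gave 4 and 8 cells, the smooth muscle list 11 and 11, the pericyte list 7 and 1 and the glial list 6 and 8. On thinning these were 4 and 6, 6 and 5, 6 and 0, and 4 and 1. The epithelium list also gave 25 and 21 cells, and 5 and 4 on thinning. Its summed level was 1009 and 661 CPM, below the 1051 and 1190 CPM of the other metadata cells. Passing the rule thus does not by itself name the kind of a cell. The 2 libraries thus gave different numbers of vessel cells, with intervals that overlap, and the counts summed over the cluster include them.

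Between libraries, 647 of 4808 measured genes (13.5%) were at least 1.5-fold higher in the library labelled transgenic over all cells of the cluster and 1025 (21.3%) at least 1.5-fold lower. With the further demand that the counting interval exclude 1, these were 285 (5.93%) and 455 (9.46%). The median log2 ratio over all measured genes was −0.09. A gene counted as measured with at least 20 UMIs over both libraries.

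Blood vessel genes were mostly lower in the library labelled transgenic. Of 11 measured blood endothelium genes 9 were at least 1.5-fold lower, against 21.3% of all measured genes, and 0 higher, with a median log2 ratio of −1.11, and their summed level was 3439 CPM in the wild type library and 1598 CPM in the library labelled transgenic. Pecam1, the adhesion protein CD31, had 437 and 203 CPM, a ratio of 0.465 (0.333 to 0.644), from 28 and 18 cells. Plvap had 894 and 369 CPM, a ratio of 0.412 (0.325 to 0.522), from 27 and 14 cells. Kdr, the main VEGF receptor, was within 1.5-fold at 159 and 141 CPM. The venule genes were further apart: Madcam1 had 109 UMIs in 8 cells and 16 UMIs in 2 cells, a ratio of 0.127 (0.0703 to 0.216), Selp had 68 UMIs in 9 cells and 7 in 2, and Ackr1, a chemokine-binding receptor of venules, had 29 UMIs in 9 cells and 4 in 3. The summed counts alone cannot tell fewer endothelial cells from less RNA per cell. Sub-cluster 2, the blood endothelium, held 30 wild type cells and 12 of the other library. Whether RNA per endothelial cell differed was not tested. At least 3 endothelial genes were carried by 31 and 19 cells.

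The lymphatic list went the other way. Of 6 measured genes 5 were at least 1.5-fold higher in the library labelled transgenic, against 13.5% of all measured genes, and 0 lower, and the summed level was 536 and 1061 CPM. Ccl21a had 25 UMIs in 4 cells and 100 UMIs in 7 cells, a ratio of 3.47 (2.22 to 5.61). Lyve1, a hyaluronan receptor, had 21 UMIs in 3 cells and 63 in 7. These values rest on 4 and 8 cells.

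Of 3 measured pericyte genes 1 was lower and 0 higher, and of 7 measured smooth muscle genes 2 were higher and 2 lower. Among all measured genes 13.5% were higher and 21.3% lower. Rgs5, a regulator of G protein signalling, had 182 UMIs in 10 wild type cells and 10 UMIs in 3 cells of the other library, 723 and 34.4 CPM, a ratio of 0.0477 (0.0225 to 0.0897). Of the wild type Rgs5 UMIs, 89.0% came from 5 cells. Acta2 had 775 and 934 CPM, a ratio of 1.21 (0.999 to 1.46). The smooth muscle genes Actg2 and Cnn1 had 12 and 5 UMIs in the wild type library against 42 and 18, while Myh11 had 91 and 68 and Des 18 and 8. Of 14 measured contractile genes 3 were higher and 3 lower, against 13.5% and 21.3% of all measured genes. In the fibroblast-like cells 0 of 7 were higher and 3 lower, against 24.1% and 21% of all genes measured there.

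Fibroblast genes as a list differed less. Of 21 measured, 5 were at least 1.5-fold higher in the library labelled transgenic over all cells of the cluster and 0 lower, against 13.5% and 21.3% of all measured genes, with a median log2 ratio of 0.07 and a summed level of 27638 and 30636 CPM. In the 63 fibroblast-like cells the same list had 2 of 20 higher and 6 lower, against 24.1% and 21% of all genes measured there, with a median log2 ratio of −0.19 and a ratio of summed levels of 0.992 (0.9501 to 1.036). The 5 higher over the cluster were Dcn, Adamdec1, Dpt, Fbln1 and Mmp2, of which Dpt, Fbln1 and Mmp2 had ratios of 1.15, 1.30 and 1.18 in the fibroblast-like cells. Dcn had 737 and 1589 UMIs, a ratio of 1.87 (1.71 to 2.04), and Adamdec1 346 and 732, a ratio of 1.84 (1.61 to 2.09). Mmp2, a gelatinase that cuts collagen, had 286 and 438 CPM, a ratio of 1.53 (1.14 to 2.07). Col1a1 was lower within 1.5-fold, with a ratio of 0.716 (0.646 to 0.793), and Col3a1 slightly higher, with 1.14 (1.05 to 1.24). Pdgfra had 89 and 80 UMIs, a ratio of 0.780 (0.569 to 1.07).

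Among the genes ranked furthest apart, several were fibroblast genes spread over many cells. Gsn, the actin-severing protein gelsolin, had 373 UMIs in 50 cells and 996 UMIs in 70 cells, 1481 and 3431 CPM, a ratio of 2.32 (2.05 to 2.62). Clec3b had 204 UMIs in 28 cells and 528 in 50, a ratio of 2.25 (1.91 to 2.65). Hspa1a and Hspa1b, heat shock chaperones whose near-identical copies share reads, had 37 and 9 UMIs against 124 and 45. Hspa1a, with a ratio of 2.91 (2.00 to 4.32) over the cluster, was at 0.606 (0.249 to 1.44) in the fibroblast-like sub-clusters, where Hspa1b was at 2.31 (0.577 to 13.3) from 3 and 9 UMIs. Tmem158 had 10 UMIs in 9 cells and 44 in 16.

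Others rested on a handful of cells. Pcp4, a calmodulin-binding protein, had 0 UMIs in the wild type library and 27 UMIs in 3 cells, or at least 7.81-fold higher when 3 counts stand for the 0. Krt14, a keratin, had 20 UMIs in 1 wild type cell and 0 in the other library, at least 7.69-fold lower. Ccl2, a monocyte chemoattractant, had 3 UMIs in 2 cells and 26 UMIs in 2 cells, and Ccl8, another, 5 UMIs in 3 cells and 55 in 10. Lrg1, known from endothelium and neutrophils, had 63 UMIs in 13 cells and 12 in 4. Kcna1, a potassium channel gene of the glia-like cells had 14 UMIs in 6 cells and 67 in 11. Cenpf, a kinetochore gene, had 21 UMIs in 2 cells and 1 UMI in 1 cell, and Rasd1, a Ras-related gene, 25 UMIs in 4 cells and 2 UMIs in 2. Lima1 and Ehd4, genes of the actin skeleton and of membrane traffic, were spread more widely, with 58 and 104 UMIs in 33 and 27 wild type cells against 12 and 28 UMIs in 11 and 16.

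When only the 63 fibroblast-like cells were compared (28 wild type cells with 71225 UMIs, 35 cells of the library labelled transgenic with 92345), 1301 genes were measured. Of these 313 (24.1%) were at least 1.5-fold higher in the library labelled transgenic and 273 (21%) lower. Blood endothelium genes were low in this set, at a summed 140 and 152 CPM, with Pecam1 and Cdh5 at 0 UMIs in both libraries and Plvap at 0 and 3. As 9 of the 10 cells of sub-cluster 5 were wild type, the same ratios are also given within the 53 cells of sub-cluster 1 (19 and 34 cells), where 182 of 997 genes (18.3%) were higher and 135 (13.5%) lower. Both sets of cells were chosen after their values were seen. They leave out sub-clusters 3 and 7, where 39 of 40 and 23 of 23 cells carried at least 3 fibroblast genes.

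Among collagen and basement membrane genes, those called were mostly lower in the fibroblast-like cells of the library labelled transgenic. Over the whole cluster 3 of 35 were higher and 5 lower, against 13.5% and 21.3% of all measured genes. The list had a median log2 ratio of −0.04 there and a ratio of summed levels of 1.036 (1.004 to 1.07). In the fibroblast-like cells, of 34 measured matrix genes 13 were at least 1.5-fold lower and 2 higher, with a median log2 ratio of −0.38 against 0.08 for all 1301 genes, of which 21% were lower. Within sub-cluster 1, 10 of 32 were lower and 2 higher, against 13.5% and 18.3% of all genes measured there. Mitochondrial genes, a sign of RNA quality, had a median log2 ratio of −0.37 in the fibroblast-like cells and a ratio of summed levels of 0.779 (0.715 to 0.848). Of 11 measured, 2 were lower and 0 higher, against 21% and 24.1% of all genes measured there. The part of RNA quality in the matrix values was not tested. Col1a1 had 443 UMIs in 22 of 28 cells and 362 UMIs in 32 of 35 cells, a ratio of 0.630 (0.547 to 0.726), and 0.645 (0.550 to 0.758) within sub-cluster 1. Col1a2, the other chain of type I collagen, had a ratio of 0.713 (0.608 to 0.835). Col18a1, a basement membrane collagen, had 102 and 43 UMIs, a ratio of 0.325 (0.222 to 0.469), and 42.2% of its wild type UMIs came from 1 cell.

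Lamb1 had 61 and 34 UMIs, a ratio of 0.430 (0.274 to 0.664), and 0.386 (0.234 to 0.631) within sub-cluster 1. Col4a2, a chain of the type IV collagen of basement membranes, had ratios of 0.494 (0.340 to 0.714) and 0.523 (0.336 to 0.815). The set of cells mattered for some genes. Col6a3 had a ratio of 0.514 (0.369 to 0.713) in the fibroblast-like cells and 0.952 (0.595 to 1.55) within sub-cluster 1, and 36.5% of its wild type UMIs in the fibroblast-like cells came from 1 cell. Fn1, fibronectin, had 1.16 over the whole cluster, 0.729 (0.588 to 0.903) in the fibroblast-like cells and 0.517 (0.416 to 0.643) within sub-cluster 1, with 37.4% of its wild type UMIs in 1 cell. Col3a1 stood at 0.938 (0.838 to 1.05) and 0.830 (0.733 to 0.940).

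The higher matrix genes were decorin and a fibulin. Dcn had 498 UMIs in 23 of 28 cells and 1127 UMIs in 34 of 35, with median levels per cell of 4376 and 10974 CPM, and a ratio of 1.75 (1.57 to 1.94). Within sub-cluster 1 the ratio was 1.25 (1.12 to 1.40), under the 1.5-fold size. Efemp1, which encodes fibulin-3, had 19 UMIs in 9 cells and 54 in 19, with ratios of 2.19 (1.28 to 3.92) and 1.97 (1.08 to 3.84). Gsn and Clec3b were likewise at 1.96 and 1.78 in the fibroblast-like cells and at 1.41 (1.21 to 1.66) and 1.24 (1.02 to 1.52) within sub-cluster 1. For these 3 genes, the size of the difference thus moved with which fibroblast-like cells were counted.

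Enzymes of matrix turnover went both ways. Of 15 measured in the fibroblast-like cells 3 were higher and 2 lower, no more than the 24.1% and 21% of all genes measured there. Adamdec1 had 148 UMIs in 12 cells and 347 UMIs in 16 cells, a ratio of 1.81 (1.49 to 2.21), and 2.28 (1.77 to 2.95) within sub-cluster 1. Timp3, an inhibitor of metalloproteases, had 27 and 70 UMIs, a ratio of 2.00 (1.27 to 3.24), with 40% of the second count in 1 cell. Plod2, which hydroxylates collagen lysines, was lower at 37 and 22 UMIs, a ratio of 0.459 (0.258 to 0.798), but 0.894 (0.420 to 1.99) within sub-cluster 1. Mmp3, the stromelysin of inflamed fibroblasts, had 0 and 3 UMIs in the whole cluster, and Timp1 15 and 12.

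**Figure D4:**
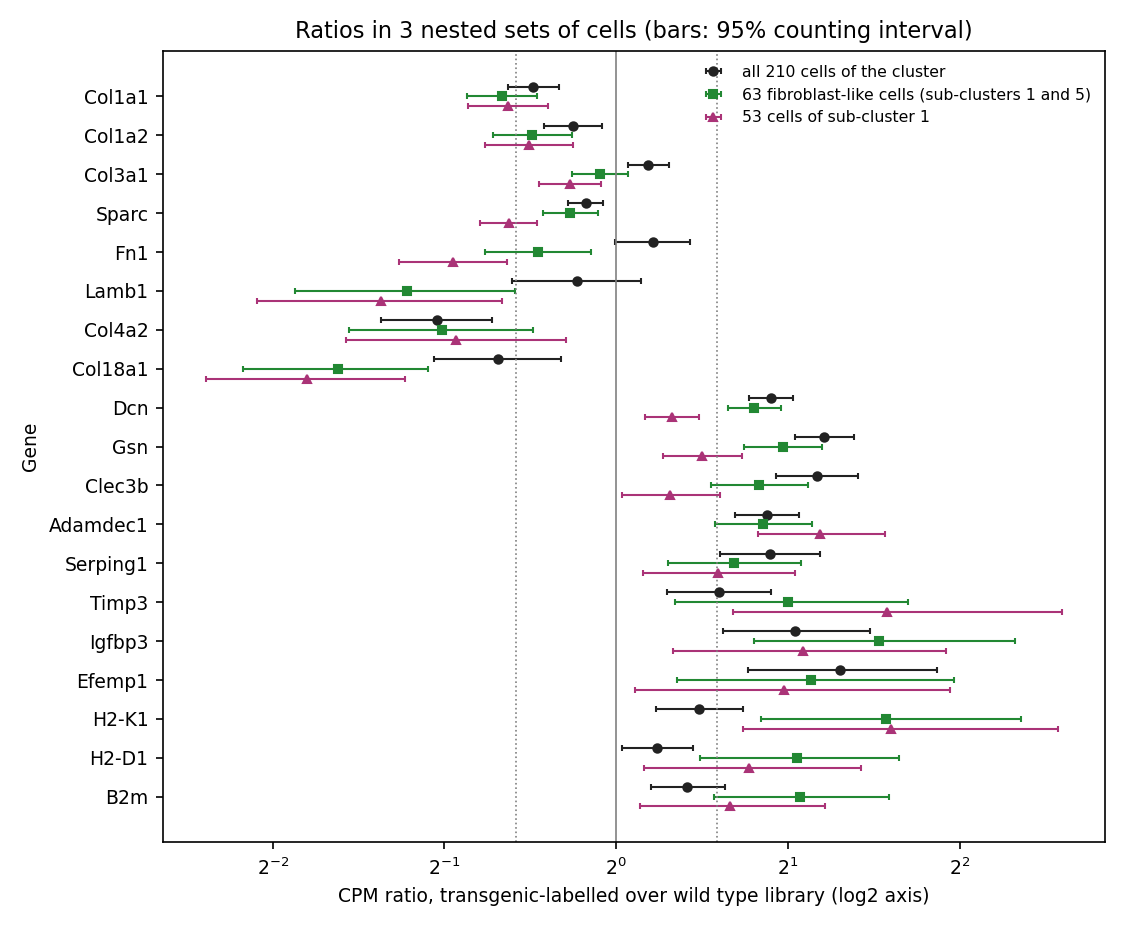
CPM ratio of the library labelled transgenic over the wild type library (log2 axis, bars are exact 95% counting intervals, dotted lines mark 1.5-fold either way) for 19 genes in 3 nested sets of cells. Col1a1 lies left of 1 in each set, Dcn moves from 1.87 over the cluster to 1.25 in sub-cluster 1, and H2-K1 moves from 1.40 to 3.03.

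H2-K1, H2-D1 and B2m, genes of antigen presentation on MHC class I, were at least 1.5-fold higher in the fibroblast-like cells of the library labelled transgenic, and were picked out after their values were seen. They belong to the interferon list, of which over the whole cluster 3 of 15 measured genes were higher and 2 lower. Among all measured genes 13.5% were higher and 21.3% lower. Isg15, a ubiquitin-like interferon target, was lower at 0.329 (0.192 to 0.546). In the fibroblast-like cells 5 genes of the list were measured, of which 4 were higher and 0 lower, against 24.1% higher among all genes. H2-K1, a class I heavy chain, had 20 UMIs in 18 of 28 cells and 77 UMIs in 22 of 35 cells, 281 and 834 CPM, a ratio of 2.97 (1.80 to 5.13). H2-D1, a related heavy chain whose reads can be shared with H2-K1, had 36 and 97 UMIs, a ratio of 2.08 (1.40 to 3.14). B2m, the light chain of class I, had 46 UMIs in 19 cells and 125 UMIs in 31 cells, a ratio of 2.10 (1.48 to 3.01).

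Within sub-cluster 1 the ratios of H2-K1, H2-D1 and B2m were 3.03 (1.67 to 5.94), 1.71 (1.12 to 2.69) and 1.58 (1.101 to 2.32), each past 1.5-fold. Over the whole cluster they were smaller, at 1.40, 1.18 and 1.33. In all other metadata cells H2-K1 stood at 1313 and 1905 CPM, H2-D1 at 1873 and 1915 and B2m at 1750 and 1984, so H2-K1 was also higher outside the cluster. The share of cells with an H2-K1 UMI was alike, 64.3% and 62.9%, and the difference lay in the UMIs per cell. Bst2, the fourth, had 10 and 22 UMIs and an interval from 0.771 to 4.01, and Ifitm3 had a ratio of 1.30 (1.03 to 1.65). As the other cells held more class I RNA than these cells, free RNA could add to these counts, and its part in the difference was not tested.

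Signals to the epithelium were mostly sparse. Bmp4 had 80 UMIs in 32 cells and 142 UMIs in 43 cells, a ratio of 1.54 (1.16 to 2.05) over the cluster and 1.16 (0.745 to 1.82) in the fibroblast-like cells. Bmp5 had 22 and 34 UMIs, Wnt5a 18 and 24, the BMP inhibitor Grem1 35 and 28 and the Wnt amplifier Rspo3 4 and 10, each with an interval that holds 1. Igf1, insulin-like growth factor 1, was lower, with 57 UMIs in 30 cells and 33 UMIs in 24 cells, a ratio of 0.502 (0.317 to 0.784), and 0.413 (0.205 to 0.800) in the fibroblast-like cells. Igfbp3, which binds it, was higher, with 67 and 159 UMIs, a ratio of 2.06 (1.54 to 2.78), and 2.89 (1.75 to 5.002) in the fibroblast-like cells, from 5 and 14 cells. Of 21 measured genes of this list 4 were higher and 6 lower over the cluster, against 13.5% and 21.3% of all measured genes, and in the fibroblast-like cells 1 of 13 was higher and 6 lower, against 24.1% and 21%.

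Chemokines and inflammatory genes were few among the fibroblast-like cells. The chemokine list had 7 of 17 measured genes higher and 5 lower over the cluster, against 13.5% and 21.3% of all measured genes. In the fibroblast-like cells it had 1 of 5 higher and 1 lower, against 24.1% and 21%. The inflammatory list had 2 of 8 higher and 3 lower over the cluster, and its 1 gene measured in the fibroblast-like cells was lower. Cxcl12 had 244 and 300 UMIs, a ratio of 1.07 (0.898 to 1.27), and 1.08 (0.785 to 1.48) in the fibroblast-like cells. Ccl11, the eosinophil attractant eotaxin, had 32 and 51 UMIs over the cluster, and 12 UMIs in 6 cells against 35 UMIs in 14 of the fibroblast-like cells, a ratio of 2.25 (1.14 to 4.76). Cxcl13, which attracts B cells, was lower, at 17 and 7 UMIs in 3 and 4 fibroblast-like cells. Il6 had 3 and 0 UMIs, Il33 8 and 4, and Il11, a cytokine of inflamed fibroblasts, 0 and 0, so no difference in these cytokines was detectable at this depth.

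Complement was measured for 7 genes over the cluster, of which 2 were higher and 0 lower, against 13.5% and 21.3% of all measured genes. In the fibroblast-like cells 1 of 6 was higher and 2 were lower, against 24.1% and 21% of all genes measured there. Serping1, the C1 inhibitor, had 147 UMIs in 48 cells and 315 UMIs in 67 cells, a ratio of 1.86 (1.52 to 2.28), with 1.61 (1.23 to 2.11) in the fibroblast-like cells and 1.51 (1.12 to 2.06) within sub-cluster 1. C3, the central complement protein, was within 1.5-fold at 82 and 92 UMIs. The adventitial markers Cd34 and Cd81 were within 1.5-fold too, with ratios of 0.763 (0.540 to 1.08) and 0.765 (0.588 to 0.994) over the cluster. In the fibroblast-like cells their ratios were 1.21 (0.681 to 2.20) and 0.771 (0.329 to 1.81). Both genes are shared with endothelium, and Cd81 also stood at 1454 CPM in the glia-like cells. Of 9 measured adventitial genes 1 was higher and 0 lower over the cluster, and 1 higher and 1 lower in the fibroblast-like cells. Within sub-cluster 1, 0 of 9 were higher and 4 lower, against 18.3% and 13.5% of all genes measured there.

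Some genes known from neutrophils and other leukocytes were found in droplets of the cluster. S100a9, a neutrophil gene that these cells are not known to make, was found in 42 of 103 wild type cells of the cluster and in 1 of 107 cells of the other library, 346 and 3.44 CPM. In all other metadata cells it stood at 17063 and 996 CPM, with a UMI in 48.8% and 5.04% of them. Cxcl2 followed the same order, with 651 and 55.1 CPM in the cluster and 5156 and 896 CPM elsewhere, and Cxcl1 and Ptgs2 also lay below their level in the other cells of both libraries. Free RNA, doublets (21 and 11 cells of the cluster had the highest doublet scores) and RNA of the cells' own cannot be told apart for these genes. Genes of early tissue dissociation were 3 higher and 8 lower of 21 measured, against 13.5% and 21.3% of all measured genes, with Fos at 2983 and 1864 CPM, and their part in the differences above was not tested.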

How the data were processed

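UMI counts per gene and barcode were used as deposited by the authors. Cell Ranger 5.0.0, Seurat 4.0 and mm10 are named, without roles, per the submitters' processing notes. The deposited metadata give cluster numbers, UMI and gene counts and percent of mitochondrial and immunoglobulin UMIs per cell, per the file headers. Their UMI totals were lower than those of the count tables in 4655 and 4945 cells, by at most 12 and 58 UMIs.

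Cells of cluster 9 were summed per library and scaled to CPM. Ratios have exact conditional binomial, levels exact Poisson and shares exact Clopper-Pearson 95% intervals. A call needed 20 UMIs and 1.5-fold (2-fold against other cells). No p-value was computed with 1 library per genotype. The ratio script was tested on simulated data.

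The 210 cells were clustered with scanpy 1.11.5 (1000 variable genes, 15 principal components, 10 neighbours, Leiden resolution 1). With its automatic threshold, Scrublet marked just 0 and 2 barcodes per library, too few to be usable, and removal of the 8% of barcodes with the highest scores was an alternative. Doublets were otherwise kept.

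Named genes were the 5 markers and a set list, the 20 genes furthest above other cells, the 10 each way furthest apart between libraries by the interval bound nearest to 1 (leaving out antigen receptor segments, genes of haemoglobin, mitochondria or ribosomes, unnamed gene models and those under 0.1 of their CPM in another cluster), and up to 4 members of each list. Values of H2-K1, H2-D1, B2m, Fn1, Col18a1, Plod2 and the sub-cluster genes were chosen after they were seen. The cluster, the lists and the alternatives were chosen with earlier results of these data known. Coordinates were matched by gene identifier in mm10.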

Additional observations from a re-analysis of the deposited data

Results flagged for a closer look

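Barcodes outside the deposited metadata also carried fibroblast markers. At least 3 of the 5 markers were found in 72 of 3389 such barcodes of the wild type library (2.12%, exact 95% interval 1.67 to 2.67) and in 89 of 3117 of the library labelled transgenic (2.86%, 2.30 to 3.50). Among metadata cells outside the cluster the shares were 0.0629% and 0.0289%. Of the 72 and 89 barcodes, 65 and 71 had at least 2200 genes. Cells of the cluster had at most 2199 and 2197 genes, so its depth is not a like comparison for the median UMIs of these barcodes, 8523 and 7066. The 5 markers summed to 34169 and 20861 CPM, against 17463 and 20084 in the cluster. Without thinning, Ptprc was found in 26.4% (16.7 to 38.1) and 22.5% (14.3 to 32.6) of these barcodes. These barcodes enter no comparison above.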

How the results depend on the processing

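Shares of cells moved with the definition. With all barcodes of a library as denominator, the cells of the cluster made up 1.05% and 1.05%. The 72 and 89 barcodes outside the metadata with at least 3 of 5 markers counted only in that denominator. Cells of the cluster with at least 3 of 5 markers were 0.789% and 1.02% of the metadata cells, with a ratio of 1.30 (0.895 to 1.90). Ptprc shares were 4.88% and 6.67% on thinning and 9.76% and 11.5% without the highest doublet scores, and in the fibroblast-like sub-clusters 7.14% and 5.71%. Counts of higher and lower genes were 1875 and 2967 with a minimum of 5 UMIs, 246 and 271 with 50, 219 and 455 at 2-fold, 313 and 273 in the fibroblast-like sub-clusters, 182 and 135 in sub-cluster 1, and 381 and 384 in cells chosen by fibroblast genes and few genes of other stroma. The last 3 sets were chosen after seeing the data and test fewer genes. Against other cells, 963 genes were higher and 64 lower at 4-fold, and 621 and 51 with 50 UMIs. The other scalings and cell filters kept these counts within 1.5 times. Contractile cells were 22 at Leiden resolution 1.5 and lymphatic cells 19 at 0.5, both added later. At 0.5 the unnamed cells went from 30 to 0 and the fibroblast-like cells from 63 to 78. Of 32 named ratios measured in the fibroblast-like sub-clusters, 16 lay within the counting interval of the whole cluster and 15 outside it, and Hspa1a turned from 2.91 to 0.606 there. The cause was not tested. No paired analysis was possible because there was 1 library per genotype. Depth limits what can be said of cytokines and growth factors.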

Other observations

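Genes of retinoid and prostaglandin metabolism, which colon fibroblasts are known to share with leukocytes, were sparse in the cluster. Of 8 measured genes of 13 listed, 4 were at least 1.5-fold higher in the library labelled transgenic and 2 lower, against 13.5% and 21.3% of all measured genes. Aldh1a1, a retinaldehyde dehydrogenase, had 9 UMIs in 7 cells and 34 UMIs in 19 cells, giving 3.28 (1.54 to 7.77) as the ratio. The prostaglandin synthase gene Ptges had 6 UMIs in 6 cells and 27 in 19. Ptgs1, the constitutive cyclooxygenase, was lower at 42 and 23 UMIs. Igfbp7, a secreted protein of vessels and fibroblasts, had 7042 and 4327 CPM over the cluster, a ratio of 0.614 (0.571 to 0.661), but 0.954 (0.826 to 1.102) in the fibroblast-like sub-clusters.

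MHC class II genes, known from antigen-presenting cells, were far below the other metadata cells. Cd74 stood at 1239 and 1499 CPM in the cluster against 16972 and 18411 elsewhere. At least 3 of 6 mesothelium genes were found in 0 cells of either library, and at least 3 of 9 mast cell genes in 0.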
